A study of Mus musculus with 26 samples.

Results

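A set of 9 genes that pancreatic acinar cells use for fat-digesting enzymes and for the granules that hold them was followed through whole tumours of KPC mice. They were taken by symbol: the lipase genes Pnlip, Pnliprp1, Pnliprp2 and Cel, the colipase gene Clps, the phospholipase gene Pla2g1b, and the granule genes Zg16, Cuzd1 and Sycn. All 9 were found among the 16322 genes of the tumour libraries, and all 9 passed the filter on low values. KPC mice are a genetic model of pancreatic ductal adenocarcinoma that depends on a Cre recombinase made in the pancreas. The groups compared were 5 tumours of KPC mice given GS9820, an inhibitor of the p110δ subunit of PI3K, for 14 days and 7 tumours of KPC mice given vehicle; the design text gives both the same length and the labels state no day for vehicle. Both groups carry the same KPC alleles, and the labels give neither the Cre driver nor the age of the mice. Values of the 9 genes in PMN and monocytes sorted from the spleen, the other arm of the study, were not analysed here.

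Acinar cells make up most of the exocrine pancreas and release their products into the gut in inactive or ready-to-use form from zymogen granules. Dietary triglyceride is cut by pancreatic lipase, the product of Pnlip, which needs colipase (Clps) to hold it on a fat droplet coated with bile salts. Pnliprp2 encodes a relative of that lipase that also cuts galactolipids and phospholipids, and Pnliprp1 a relative with little lipase activity. Cel encodes the bile-salt-dependent lipase, which also cuts cholesterol esters, and Pla2g1b a secreted phospholipase A2. Zg16 encodes a lectin-like protein of the granule matrix that goblet cells of the gut make too, Sycn the granule protein syncollin, and Cuzd1 a granule membrane protein. Acinar secretory genes are switched on by PTF1, a complex of Ptf1a with Rbpjl and an E protein, and by the nuclear receptor Nr5a2.

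The 3 genes of the lipase family lie side by side on chromosome 19 of GRCm38 in GENCODE M21, all on the plus strand: Pnlip (ENSMUSG00000046008, 58652498 to 58681788), Pnliprp1 (ENSMUSG00000042179, 58728887 to 58744169) and Pnliprp2 (ENSMUSG00000025091, 58759719 to 58777534). They span 125037 bases with 5 annotated genes, of which these 3 have values. Cel (ENSMUSG00000026818) lies on chromosome 2, 28555795 to 28563403, Clps (ENSMUSG00000024225) on chromosome 17, 28558149 to 28560766, and Pla2g1b (ENSMUSG00000029522) on chromosome 5, 115466262 to 115474722. The granule genes are all on chromosome 7: Sycn (ENSMUSG00000084174) at 28540885 to 28542209, Zg16 (ENSMUSG00000049350) at 127050156 to 127087328 and Cuzd1 (ENSMUSG00000040205) at 131308554 to 131322292. All 9 are protein-coding. The annotation of Cuzd1 overlaps Fgfr2 on the same strand and that of Sycn overlaps Samd4b on the other. Cel (Gm13381) and Zg16 (Gm44939 and Gm22747) overlap genes on the other strand as well, and Clps holds Mir6969 on its own. The kit keeps strand, but whether the counting used it is not given in the sources used here, so reads in shared stretches may not be told apart. In vehicle tumour 7 the value of Cuzd1 was -1.64 while that of Fgfr2 was 8.26.

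Promoter windows from RefSeq (GRCm38.p6), the 250 bases before the annotated start, were matched by symbol for 7 of the 9 genes. The windows of Pnlip, Pnliprp1 and Cel are shown because these 3 genes were close in level in most tumours and parted in a few. For Pnlip the RefSeq start (58670365) lies inside the GENCODE gene. Capitals mark CANNTG, the E-box letters bound by the basic helix-loop-helix part of PTF1, TTCCCA on either strand, the letters bound by its Rbpjl part, and CAAGGTCA on either strand, the letters bound by Nr5a2.
Pnlip (chr19:58670115-58670364, plus strand): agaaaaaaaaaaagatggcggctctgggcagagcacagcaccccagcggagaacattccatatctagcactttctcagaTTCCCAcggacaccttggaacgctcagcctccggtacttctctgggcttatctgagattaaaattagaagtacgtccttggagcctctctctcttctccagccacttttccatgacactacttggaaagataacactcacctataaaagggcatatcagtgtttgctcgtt
Pnliprp1 (chr19:58728637-58728886, plus strand): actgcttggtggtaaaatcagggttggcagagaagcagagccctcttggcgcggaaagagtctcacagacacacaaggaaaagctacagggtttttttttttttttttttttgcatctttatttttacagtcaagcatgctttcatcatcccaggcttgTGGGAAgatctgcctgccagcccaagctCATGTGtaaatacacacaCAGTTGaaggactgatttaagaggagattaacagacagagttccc
Cel (chr2:28563404-28563653, minus strand): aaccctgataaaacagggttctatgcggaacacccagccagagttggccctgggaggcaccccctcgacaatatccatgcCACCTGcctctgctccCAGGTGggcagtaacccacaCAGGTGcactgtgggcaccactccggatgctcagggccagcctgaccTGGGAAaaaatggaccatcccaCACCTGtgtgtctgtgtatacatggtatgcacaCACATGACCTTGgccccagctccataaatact

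The Cel window held 5 CANNTG matches, at 170, 154, 134, 65 and 32 bases before the start. On the other strand it held TTCCCA at 87 and CAAGGTCA at 28, the last overlapping the nearest E-box. Pnliprp1 held CANNTG at 63 and 45 bases and, on the other strand, TTCCCA at 91 bases before the start. Pnlip held TTCCCA at 171 bases and no E-box letters. CANNTG occurred in 4 of the 7 windows and in 66.2% of all 32851 promoter windows of that length, and TTCCCA in 4 of 7 and 21.6%. The 2 motifs began within 30 bases of each other in 2 of 7, Pnliprp1 and Cel, and in 5.93% of all. CAAGGTCA occurred in 1 of 7, that of Cel, and in 1.33% of all. These are letter matches and not measured binding.

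Values are the authors' deposited log2 values, named log2 RPKM and so scaled per gene length. Every tumour library had the same highest value (15.27) and the same median (4.8), so a value is read here as a place within its own library. Sequencing depth is unknown, and the number of reads behind a value cannot be given. Correlations between tumour libraries over all genes ran from 0.63 to 0.945. No label says that libraries came from separate animals, so p-values measure the spread between these libraries. Some tumours were high in marker genes of other organs: the mean of 6 hepatocyte markers was 11.77 in treated tumour 3, 6.47 in treated tumour 1 and 4.98 in vehicle tumour 4, and between 0.52 and 2.76 in the other 9. The mean of 9 intestinal markers was 10.95 in treated tumour 1 and 5.96 in vehicle tumour 7, and between 1.58 and 3.17 in the other 10. Which cells made these transcripts was not tested. Markers of ductal and carcinoma epithelium, the tumour type that KPC mice model, had list means of 7.64 to 8.83 in treated tumours and 4.52 to 9.28 in vehicle tumours.

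The triglyceride lipase Pnlip stood at 10.43, 11.82, 6.61, 11.45 and 8.58 in treated tumours 1 to 5, against a lowest value of 3.03, a median of 6.77 and a highest of 12.37 in the 7 vehicle tumours. Its neighbour Pnliprp1 stood at 11.05, 12.29, 6.44, 12.26 and 11.69 in treated tumours 1 to 5, against 3.24, 8.26 and 12.08 (lowest, median, highest) in vehicle tumours. Treated tumour 3 was the low one of its group for both genes, and vehicle tumours 1 and 7 were lower still. Pnliprp2 stood at 7.02, 8.79, 3.51, 9.10 and 7.17 in treated tumours 1 to 5, against 0.32, 5.16 and 8.71 in vehicle tumours. All 3 genes overlapped between the groups, and the highest Pnlip value of all was in a vehicle tumour, number 6. In whole tumours, fewer acinar cells and less of a transcript per acinar cell cannot be told apart.

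Cel, the bile-salt-dependent lipase, stood at 10.94, 11.90, 7.33, 12.37 and 11.67 in treated tumours 1 to 5, against 3.14, 9.16 and 12.22 (lowest, median, highest) in vehicle tumours. Of the treated tumours 4 lay above the vehicle median and treated tumour 3 lay below it. Clps, whose product is the cofactor of Pnlip, stood at 7.48, 9.74, 5.65, 10.32 and 8.07 in treated tumours 1 to 5, against 0.74, 4.67 and 10.17 in vehicle tumours. All 5 treated tumours lay above the vehicle median of Clps, and 3 of 7 vehicle tumours lay above the lowest treated one. The phospholipase gene Pla2g1b was much lower, at 2.01, 4.52, 1.04, 3.51 and 2.41 in treated tumours 1 to 5, against -1.49, 1.82 and 4.77 in vehicle tumours. It lay above the library median in 0 of the 12 tumours.

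Among the granule genes, Zg16 stood at 11.25, 10.13, 5.17, 9.35 and 7.60 in treated tumours 1 to 5, against 2.26, 6.08 and 9.93 (lowest, median, highest) in vehicle tumours. Treated tumour 1 was its highest value, which was the case for none of the other 8 genes. Sycn stood at 8.40, 9.26, 4.55, 9.07 and 6.25 in treated tumours 1 to 5, against -0.43, 5.03 and 9.43 in vehicle tumours. Cuzd1 stood at 6.02, 8.04, 2.23, 7.94 and 6.81 in treated tumours 1 to 5, against -1.64, 4.23 and 7.76 in vehicle tumours. For both genes the lowest library was vehicle tumour 7. The groups overlapped, and treated tumours exceeded all vehicle tumours in 2 cases for Cuzd1 and 0 for Sycn.

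**Figure D1:**
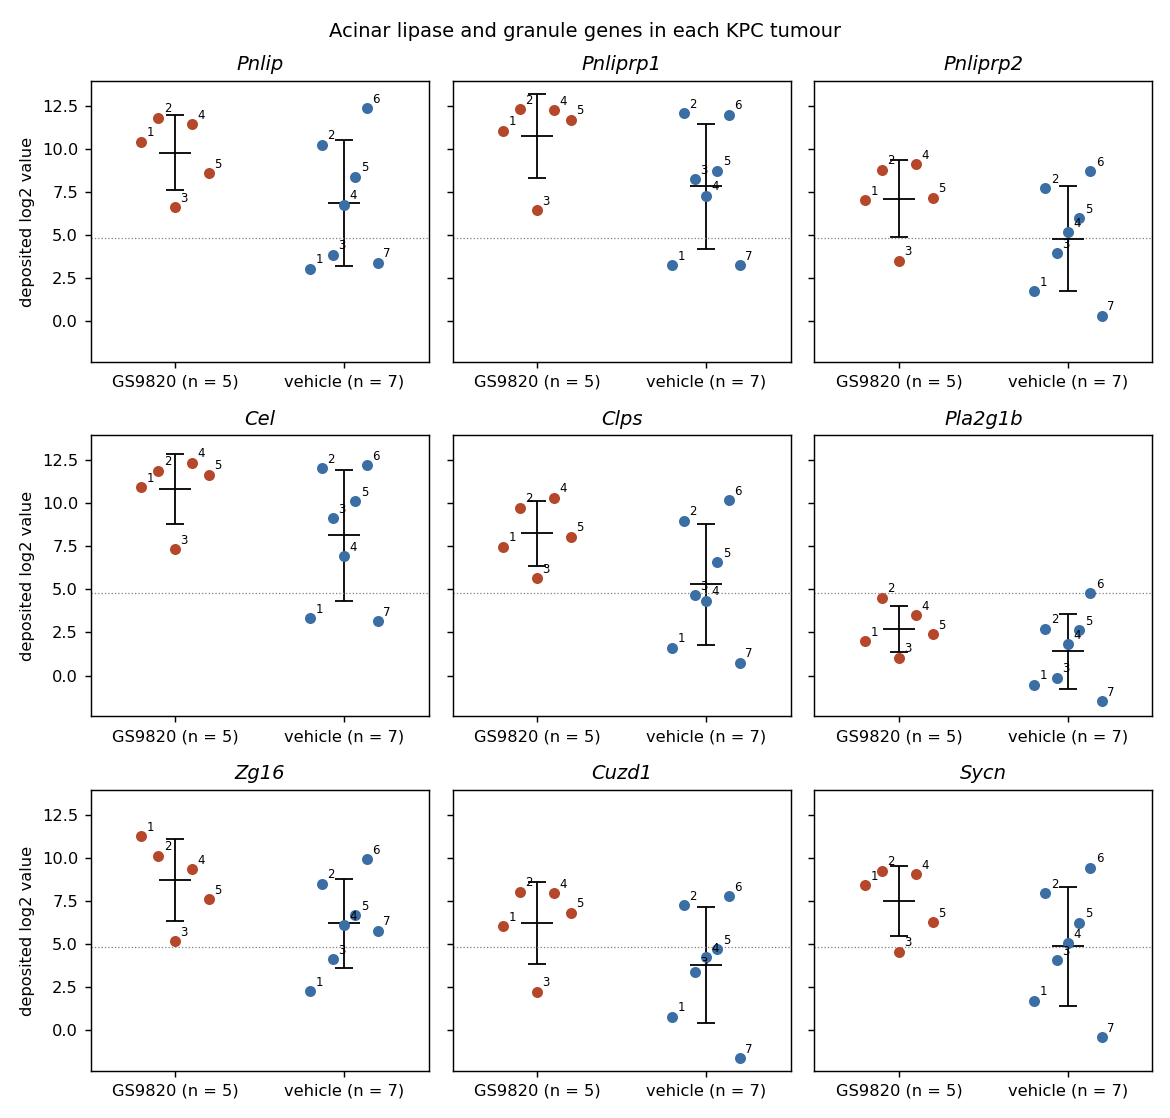
Deposited log2 value of each of the 9 genes (y axis) in 5 GS9820-treated tumours (left of each panel) and 7 vehicle tumours (right); numbers are tumour numbers, bars are mean ± SD and the dotted line is the library median of 4.8. Vehicle tumours 1 and 7 are low for all 9 genes except Zg16 in tumour 7 (5.77), and treated and vehicle values overlap in every panel.

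The tumours fell in nearly the same order for each gene. Averaged over the 9 genes the level was 8.29, 9.61, 4.73, 9.49 and 7.80 in treated tumours 1 to 5, against 1.91, 8.61, 4.59, 5.29, 6.67, 9.71 and 1.45 in vehicle tumours 1 to 7. The treated mean was 7.98 ± 1.98 (SD, n = 5) and the vehicle mean 5.46 ± 3.13 (SD, n = 7). In the richest tumours the lipases were among the most abundant transcripts: Cel was at rank 25 of 16322 genes in treated tumour 4, Pnliprp1 at rank 27 in treated tumour 2 and Pnlip at rank 25 in vehicle tumour 6. In vehicle tumours 1 and 7 the same 3 genes were at ranks 12078 to 12868. Pnliprp1 and Cel were in the top 1% of a library (163 genes) in 6 of 12 tumours, Pnlip in 5, Clps in 2, Zg16 in 1, and Pnliprp2, Pla2g1b, Cuzd1 and Sycn in 0. The SD over the 12 tumours was 1.94 for Pla2g1b, larger than that of 96.7% of all genes tested, and 2.70 to 3.41 for the other 8 genes, larger than 98.9% to 99.7%.

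Ordered by their mean over the 12 tumours on the per-length scale, the levels ran Cel (9.26), Pnliprp1 (9.05), Pnlip (8.08), Zg16 (7.24), Clps (6.53), Sycn (5.96), Pnliprp2 (5.76), Cuzd1 (4.79) and Pla2g1b (1.94). Differences between neighbours were taken within each tumour. The first 6 steps of this order were smaller than their own SD; Cel, for instance, exceeded Pnliprp1 by 0.22 ± 0.56 (SD, n = 12) and was higher in 6 of 12 tumours. Pnliprp2 exceeded Cuzd1 in 12 of 12 tumours, by 0.97 ± 0.43, and Cuzd1 exceeded Pla2g1b in 11 of 12, by 2.85 ± 1.51. Cel exceeded Pla2g1b by 8.14 ± 1.26 (SD, n = 5) in treated tumours and by 6.74 ± 2.22 (SD, n = 7) in vehicle tumours.

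Over the 36 pairs of these genes, Pearson's r across the 12 tumours had a median of 0.948 (0.783 to 0.993) and Spearman's rho one of 0.937 (0.762 to 0.993), given as a description since all genes share the tissue content of a library. Taken as deviations from the group means, r had a median of 0.937 (0.732 to 0.992), and within the 7 vehicle tumours one of 0.946 (0.741 to 0.998). Pnliprp2 followed the mean of the other 8 genes most closely (r = 0.989) and Zg16 least (r = 0.843). The 10 genes most like the mean of the 9, of 16287 others compared, had r of 0.986 to 0.996 over the 12 tumours. They included the carboxypeptidase gene Cpb1, the elastase genes Cela2a and Cela3a, the chymotrypsin-family genes Ctrl and Ctrc, the pancreatic ribonuclease gene Rnase1, Reg3a, the pancreas-restricted disulphide isomerase gene Pdia2, and 2210010C04Rik. Of these 8 were on the acinar lists compared below. With deviations from the group means, 9 of the 10 were the same genes.

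**Figure D2:**
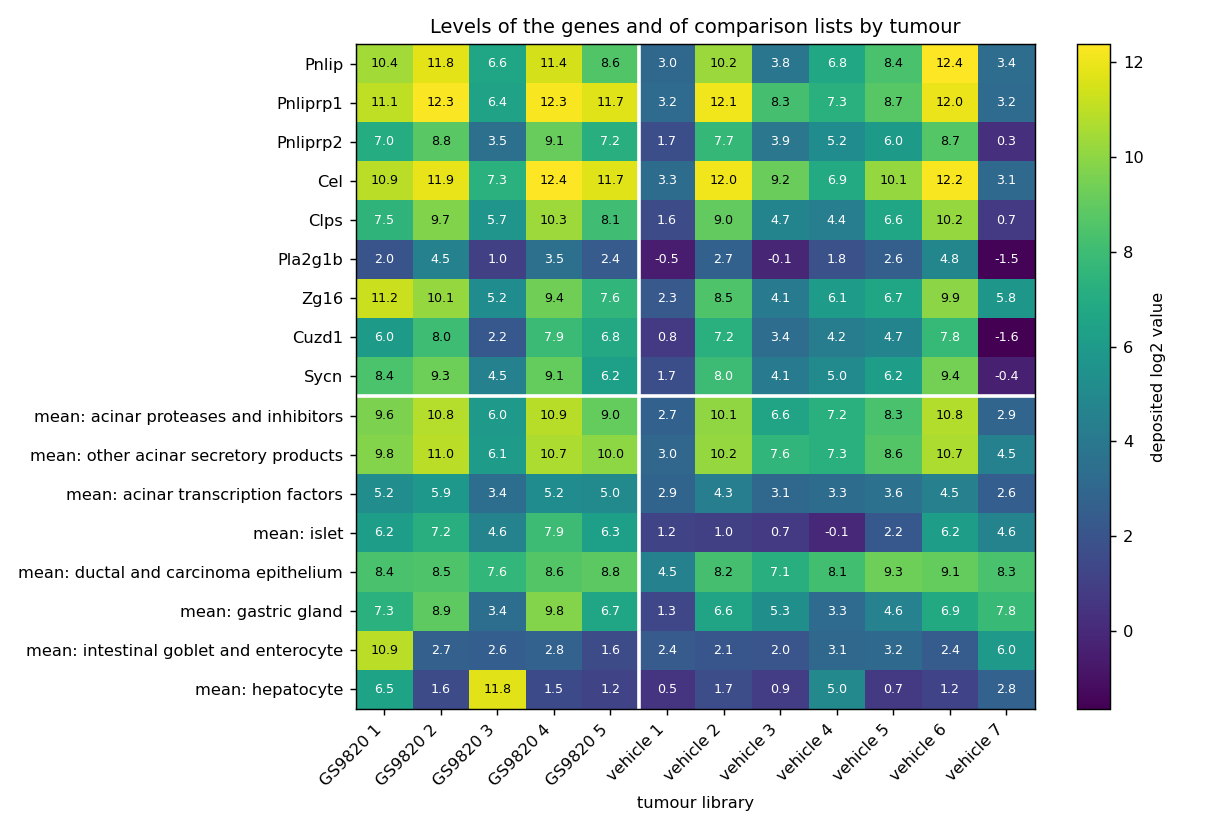
Deposited log2 value (colour and printed number) of each gene, and below the line the mean of each comparison list, in GS9820-treated tumours 1 to 5 (left) and vehicle tumours 1 to 7 (right). The lists of other acinar genes darken and brighten with the 9 genes; intestinal and hepatocyte markers are high in single tumours, and islet markers are high in the lipase-rich vehicle tumour 6 (6.18) but not in vehicle tumour 2 (1.02).

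The comparison of treated with vehicle tumours asked whether the lipase and granule genes of the pancreas differed after inhibition of p110δ. The treated mean exceeded the vehicle mean for each of the 9 genes, by 1.30 to 2.95 with a median of 2.65, and 0 of 9 passed the test (limma, adjusted p under 0.05), against 2.2% of all 16296 genes tested in either direction and 0.878% higher in treated tumours. At an unadjusted p under 0.05 it was 0 of 9, against 24.4% of all genes. That count rested on single tumours: it was 6 of 9 without treated tumour 3, 6 of 9 without vehicle tumour 6 and 3 of 9 without vehicle tumour 2, and 0 in the other 9 fits with 1 tumour left out. Without treated tumour 3, vehicle tumour 6 and vehicle tumour 2 in turn, all genes gave 4171 of 16305, 4015 of 16284 and 3375 of 16280 (limma). Over all genes the median change was -0.06 and 45.3% were above 0. The 9 genes moved together from tumour to tumour, so their shared direction is not 9 separate observations. No gene of the 9 had all treated values above all vehicle values, which held for 0.951% of all genes.

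Clps averaged 8.25 ± 1.86 (SD, n = 5) in treated tumours and 5.31 ± 3.53 (SD, n = 7) in vehicle tumours, a difference of 2.95 ± 1.54 (SE; 95% interval -0.37 to 6.27; limma, adjusted p = 0.256). Zg16 averaged 8.70 ± 2.38 in treated and 6.19 ± 2.57 in vehicle tumours and differed by 2.51 ± 1.29 (-0.28 to 5.29; limma, adjusted p = 0.249). For Pnlip the means were 9.78 ± 2.17 in treated and 6.86 ± 3.65 in vehicle tumours, and the difference was 2.92 ± 1.62 (-0.59 to 6.43; limma, adjusted p = 0.287). The other lipases differed by 2.92 ± 1.66 (Pnliprp1), 2.70 ± 1.66 (Cel) and 2.32 ± 1.42 (Pnliprp2), and Sycn and Cuzd1 by 2.65 ± 1.53 and 2.43 ± 1.55. Pla2g1b had the smallest difference, 1.30 (95% interval -0.87 to 3.47; limma, adjusted p = 0.444). The intervals of all 9 genes reached from below 0 to more than 3 log2 units, so a difference of 0 and a large one are both within them.

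The mean of 18 acinar protease and inhibitor genes followed the mean of the 9 genes at r = 0.993. A fit with that mean as a covariate therefore takes out any change that acinar genes share, whether in cell number or per cell. It can only show how the 9 genes differ from the proteases. The differences of the 9 genes were then between -0.16 (Pla2g1b) and 0.79 ± 0.82 (Zg16), and 0 of 9 passed (limma). In that fit Pnlip differed by 0.45 ± 0.63 and Clps by 0.55 ± 0.44. Taken within each tumour, Pnlip lay 0.53 ± 0.57 above the protease mean in treated tumours (SD, n = 5) and -0.09 ± 1.32 from it in vehicle tumours (n = 7), and Cel 1.59 ± 0.60 above it in treated and 1.19 ± 1.05 above it in vehicle tumours. Pnliprp2 lay -2.14 ± 0.35 from it in treated and -2.16 ± 0.55 in vehicle tumours, the narrowest spread of the 9 genes in each group.

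**Figure D3:**
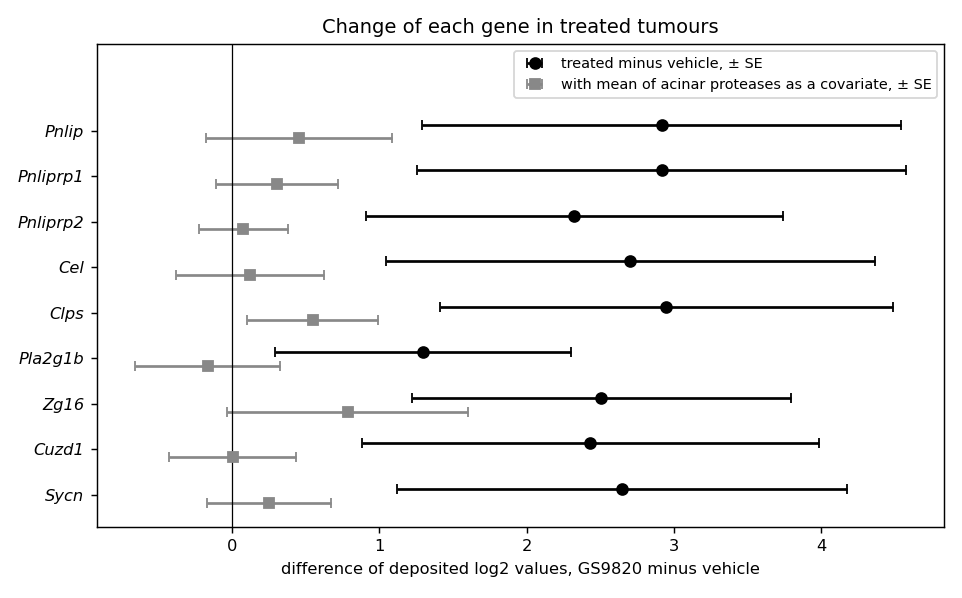
Difference of deposited log2 values, GS9820-treated minus vehicle tumours (x axis), for each gene with its SE; circles are the fit on treatment alone and squares the fit with the mean of acinar proteases as a covariate. Circles lie at 1.30 to 2.95 and squares at -0.16 to 0.79, and no difference passed the test.

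The other acinar secretory genes stood higher in treated tumours by similar amounts and did not pass the test either. Of 18 proteases and inhibitors, 18 were higher in treated tumours and 0 passed, with a median change of 2.30, and Cpb1 stood at 3.07 ± 1.65 (limma, adjusted p = 0.269). Of 14 other secretory products (amylases, Reg proteins, Gp2 and others), 14 were higher and 0 passed, with a median of 2.01, with Rnase1 at 3.06 ± 1.59 and Reg1, a regenerating-family protein, at 2.59 ± 1.39 (limma, adjusted p = 0.255 and 0.269). The list mean of the proteases ran from 5.95 to 10.87 in treated and from 2.74 to 10.78 in vehicle tumours. Of 8 acinar transcription factors, 8 were higher with a median of 1.06, and 1 rose, Nr5a2, which averaged 4.44 ± 0.48 (SD, n = 5) in treated and 2.16 ± 0.88 (SD, n = 7) in vehicle tumours (limma, adjusted p = 0.0219). The Nr5a2 call ended without treated tumour 2, 4 or 5 or vehicle tumour 4, and with the acinar covariate, at changes of 1.75 to 2.32 (limma, adjusted p = 0.0511 to 0.0734). It also ended without treated tumours 1 and 3 and vehicle tumour 4 together, at a change of 2.39 (limma, adjusted p = 0.0583). Without treated tumour 4, and with the covariate, 0 of all genes passed, so no call of any gene held there. The change of Nr5a2 was 2.28 ± 0.41 in the main fit and 1.75 ± 0.28 with the covariate. Of 18 genes of granule docking, release and acinar stimulation, 0 passed and 15 were higher, with a median of 0.44. The SNARE gene Vamp2 stood at 0.73 ± 0.25 and Cplx2, which encodes the SNARE-binding complexin 2, at 1.23 ± 0.45 (limma, adjusted p = 0.113 and 0.128).

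Lipid-handling genes outside the acinar cell differed in both directions. Of 18 other lipase and phospholipase genes and their partners, 12 were higher and their changes ran from -2.54 to 1.02 with a median of 0.34. An unadjusted p under 0.05 was found for 7 of 18, against 24.4% of all genes (limma). At an adjusted p under 0.05, 0 rose and 1 fell, against 0.878% and 1.33% of all genes (limma). That gene was Gpihbp1, which anchors lipoprotein lipase to capillary walls and changed by -2.54 ± 0.58, with a mean of 1.23 ± 1.44 (SD, n = 5) in treated and 3.78 ± 0.78 (SD, n = 7) in vehicle tumours (limma, adjusted p = 0.0435). That call held in 3 of 12 fits with 1 tumour left out, without treated tumour 3 or vehicle tumour 5 or 6, and ended with the acinar covariate (limma, adjusted p = 0.143). The mean of this list stayed between 3.95 and 4.53 in treated and between 3.81 and 4.37 in vehicle tumours, while the mean of the 9 genes ran from 4.73 to 9.61 in treated and from 1.45 to 9.71 in vehicle tumours.

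Islet genes, the other parenchyma of the pancreas, were high in most lipase-rich tumours and low in vehicle tumour 2. Of 12 islet genes 12 were higher in treated tumours, with a median change of 4.57. The test was passed by 3, Chga, Chgb and Ppy, which encode granins and pancreatic polypeptide. An unadjusted p under 0.05 was found for 12 of 12 (limma), against 24.4% of all genes. These are not 12 separate observations, since the genes share the tissue content of a library. With 1 tumour left out, Chga passed in 5 of 12 fits, Chgb in 4 and Ppy in 3, and each call ended without treated tumour 2, 4 or 5 or vehicle tumour 1, 2, 3 or 4 and with the acinar covariate. The calls of Chgb and Ppy also ended without treated tumour 1, and that of Ppy without vehicle tumour 7. The islet list mean was 4.64 to 7.94 in treated and -0.07 to 6.18 in vehicle tumours. Vehicle tumour 2 had a lipase and granule mean of 8.61 with an islet mean of 1.02, and vehicle tumour 7 had 1.45 with 4.61. Of 12 ductal and carcinoma genes 0 passed, with a median of 0.41. Vehicle tumour 1, low in the lipase genes, was also lowest in the ductal list at 4.52, where treated tumours had 7.64 to 8.83 and the other 6 vehicle tumours 7.14 to 9.28. Medians were 2.25 for 7 gastric gland genes, 2.45 for 8 adipocyte genes, 2.82 for 5 hepatocyte genes, 1.17 for 9 intestinal genes and 0.35 for 10 leukocyte genes, with 0 past the threshold in each. Of 10 fibroblast and matrix genes 2 rose, Dcn and Dpt, with a median of 0.30. With 1 tumour left out, Dcn passed in 5 of 12 fits and Dpt in 6, and both calls ended without treated tumour 2, 4 or 5 or vehicle tumour 2 or 4 and with the covariate. Further tumours ended 1 of the calls, vehicle tumours 1 and 3 that of Dcn and vehicle tumour 7 that of Dpt. The part of these other tissues in the values of the 9 genes was not tested.

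The proportions of the 9 genes within a tumour were compared next. Each gene was centred on its own mean over the 12 tumours and set against the mean of the other 8. Of 108 such values 82 lay within 1 log2 unit. The median size of a gene's deviation was 0.32 for Sycn, the smallest, and 1.11 for Pla2g1b, the largest. The greatest deviation of Pnliprp2 was 0.69, and that of Zg16 was 4.04.

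In vehicle tumour 3 the lipase genes parted. Pnlip stood at 3.84 there, below the library median and at rank 10960, while Cel stood at 9.16 (rank 332) and Pnliprp1 at 8.26 (rank 641). Pnlip was thus 5.31 below Cel and 4.41 below Pnliprp1, its neighbour on chromosome 19. In the other 6 vehicle tumours Pnlip minus Cel lay between -1.81 and 0.25, and in treated tumours it was -0.51, -0.08, -0.72, -0.93 and -3.09 in tumours 1 to 5. Treated tumour 5 was the next lowest, with Pnlip at 8.58, Pnliprp1 at 11.69 and Cel at 11.67. The group means of Pnlip minus Cel were -1.07 ± 1.17 (SD, n = 5) in treated and -1.28 ± 1.97 (SD, n = 7) in vehicle tumours. Clps, at 4.67, exceeded Pnlip in vehicle tumour 3 and in none of the other 11 tumours. Among 41 acinar genes (the 9, the proteases and the other secretory products), each set against the mean of all 41, Pnlip had the lowest value in vehicle tumour 3 (-2.99), followed by Zg16 (-1.86), Ctrc (-1.50) and Cela2a (-1.29). In treated tumour 5 the lowest were Prss1 (-1.26) and Try10 (-1.19), and Pnliprp1 was the highest (1.28). Pnlip minus Clps was 0.51 to 2.95 in treated tumours and -0.82 to 2.64 in vehicle tumours.

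Zg16 lay above the other 8 genes in treated tumour 1 and vehicle tumour 7, the tumours with the highest intestinal list means of their groups. It lay 2.51 above the other 8 genes in treated tumour 1 and 4.04 above them in vehicle tumour 7. In treated tumours 2 to 5 it lay between -1.05 and -0.23 from them, and in vehicle tumours 1 to 6 between -1.34 and 0.07. Zg16 minus Sycn was 2.84 in treated tumour 1 and 6.20 in vehicle tumour 7, against 0.28 to 1.35 in the other 4 treated and 0.06 to 1.06 in the other 6 vehicle tumours. Zg16 was not alone among acinar genes there. Set against the mean of the 41 it stood at 2.37 in treated tumour 1, where Spink1 stood higher, at 2.47, and Reg3g at 1.75. In vehicle tumour 7 it stood at 3.11, where Tff2 stood at 8.42, Dmbt1 at 3.50, Klk1 at 2.65 and Cela1 at 2.01. Spink1 stood at 0.18 in vehicle tumour 7. The goblet cell genes Fcgbp and Clca1 stood at 11.96 and 10.55 in treated tumour 1 and at 9.44 and 7.96 in vehicle tumour 7. They were also high in treated tumour 4 (7.11 and 7.85) and vehicle tumour 5 (8.11 and 6.65), where Zg16 lay -0.97 and -0.81 from the other 8 genes. In the remaining 8 tumours Fcgbp lay between 1.54 and 6.80 and Clca1 between -0.54 and 6.86. The enterocyte phosphatase gene Alpi stood at 12.02 in treated tumour 1 and 7.16 in vehicle tumour 7, and between -2.94 and 3.34 elsewhere. Without treated tumour 1 and vehicle tumour 7, left out after the data were seen, the difference of Zg16 was 1.80 ± 1.43 (limma, adjusted p = 0.489), against 2.51 in the main fit. With both tumours left out the other 8 genes fell as well. The median change of the 9 then went from 2.65 to 1.80, and Sycn from 2.65 to 1.54. Leaving out each tumour alone set Zg16 apart. Without treated tumour 1 Zg16 stood at 1.87 and the median of the 9 at 2.48. Without vehicle tumour 7 Zg16 stood at 2.44 and the median at 1.87.

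**Figure D4:**
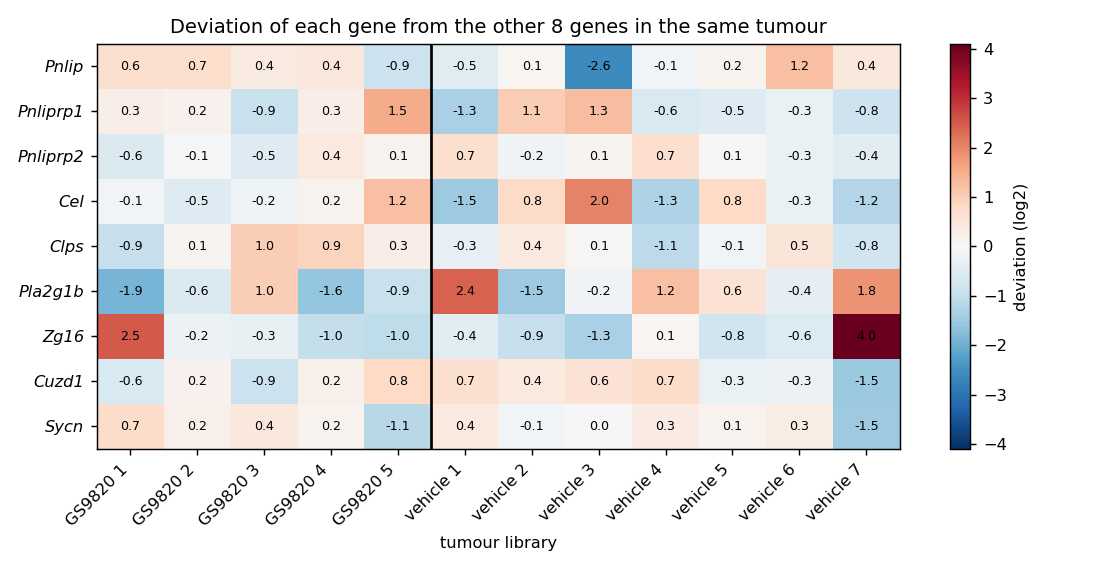
Deviation of each gene from the mean of the other 8 in the same tumour (colour and number, log2 units, each gene centred on its 12-tumour mean), for GS9820-treated tumours 1 to 5 (left) and vehicle tumours 1 to 7 (right). The largest are Zg16 in vehicle tumour 7 (4.04), Pnlip in vehicle tumour 3 (-2.60) and Zg16 in treated tumour 1 (2.51).

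Pla2g1b, the gene of lowest level, spanned a narrower range than the others. It lay -1.92 from the other 8 in treated tumour 1 and -1.58 in treated tumour 4, and 2.40 and 1.84 above them in vehicle tumours 1 and 7, the tumours with the lowest lipase levels. Its highest and lowest values over the 12 tumours were 6.26 apart, against 8.78 to 9.86 for the other 8 genes.

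**Figure D5:**
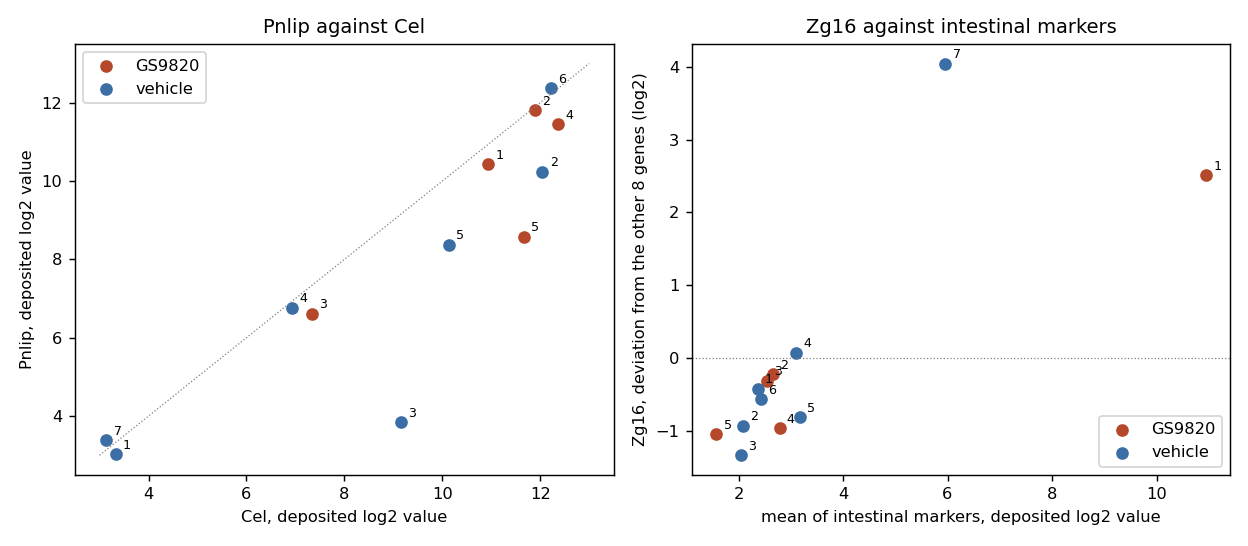
Left: Pnlip (y) against Cel (x), deposited log2 values, with the line of equal values; right: deviation of Zg16 from the other 8 genes (y) against the mean of 9 intestinal markers (x). Points are tumours, with GS9820 listed above vehicle in the legends; vehicle tumour 3 lies 5.31 below the line on the left, and treated tumour 1 and vehicle tumour 7 lie apart on the right.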

How the data were processed

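RNA was measured by sequencing in 12 KPC tumours, and nothing was aligned or counted anew. The authors deposited log2 values, named log2 RPKM in the file headers. Per the submitters' processing notes they used TopHat2, STAR and limma and the build mm10; versions and the role of each tool are not given in the sources used here. Per the labels' protocols, libraries were stranded total RNA without ribosomal RNA, run on 1 lane. Because the libraries share nearly 1 distribution, a value follows from a gene's rank in its library, and depth cannot be recovered. Symbols and positions came from GENCODE M21.

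Genes at 0 or more in at least 5 tumours (16296) were tested with limma 3.58.1 in R 4.3.3, using lmFit and a trended eBayes; tests were two-sided and adjusted by Benjamini-Hochberg over all genes. Figures used matplotlib 3.10.9. The script was tested on simulated data. The 9 genes and all lists were chosen with earlier results of these data known. Named genes were the 9, the 10 most like their mean, and up to 4 per list past the threshold or else up to 2 of smallest p; some of these are not reported here. Alternatives were other filters, a pseudocount of 1, quantile normalization, median centring, other eBayes settings, array weights, tumours left out, a replicate block and the acinar covariate.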

Additional observations from a re-analysis of the deposited data

Results flagged for a closer look

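For each gene and each within-tumour difference, a tumour was noted when its gap to the nearest tumour of its group took up more of the group's range than the 95% limit for that group size. Of 54 groups looked at 10 were noted, many of them sharing the same values, where chance gives about 1 in 20. The lowest treated tumour stood far from the other 4 for Pnliprp1 (6.44, treated tumour 3) and for Cel (7.33, treated tumour 3). For Pnlip minus Cel the lowest treated tumour was number 5 (-3.09) and the lowest vehicle tumour number 3 (-5.31). For Pnlip minus Clps vehicle tumour 3 was lowest (-0.82). Against the other 8 genes Pnlip was lowest in treated tumour 5 (-0.89). Zg16 was highest against the other 8 genes in treated tumour 1 (2.51) and in vehicle tumour 7 (4.04), and Zg16 minus Sycn was highest in vehicle tumour 7 (6.20). Sycn was lowest against the other 8 genes in vehicle tumour 7 (-1.49).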

How the results depend on the processing

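Under 24 alternatives 0 of the 9 genes passed the threshold, with adjusted p between 0.122 and 0.997 (limma), and 215 of 216 changes of single genes kept their sign. The exception was Pla2g1b with the acinar protease mean as a covariate, at -0.16 (limma, adjusted p = 0.895); the cause was not tested. The median change of the 9 genes was 1.87 (without vehicle tumour 7) to 3.43 (without treated tumour 3) with 1 tumour left out, and 0.25 with the covariate. The count of all genes past the threshold, 359, moved far more. It was 2764 with array quality weights, 223 without treated tumours 1 and 3 and vehicle tumour 4, 152 without treated tumour 1 and vehicle tumour 7 (chosen after seeing the data), and 0 with the covariate (2686 at an unadjusted p under 0.05, limma). With 1 tumour left out it ran from 0 (without treated tumour 4; 2915 at an unadjusted p under 0.05) to 1690 (without vehicle tumour 5). Leaving out treated tumours 2 and 5 in turn gave 31 and 121, and it was 179, 97, 112, 68 and 124 without vehicle tumours 1, 2, 3, 4 and 7. Tumours numbered 1 to 5 share only a number: the correlation of same-numbered deviations was -0.179 to 0.263, and in 1 of 5 numbers both tumours correlated best with each other. With the replicate block on these tumours 171 genes passed and 0 of the 9, whose median change was 2.52. At an unadjusted p under 0.05 it was then 7 of the 9, against 3430 of all 16296 genes (limma). Each of the 7 list genes past the threshold passed in 3 to 8 of 12 fits with 1 tumour left out. Depth is unknown, so no limit from counting can be given.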

Other observations

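In vehicle tumour 7, where the 9 genes had their lowest mean, some acinar products stood far above the rest; those named here were picked for their values. Tff2, a trefoil peptide made by stomach glands as well as acinar cells, stood at 12.51 there, above its values in the other 11 tumours (3.09 to 11.49). Dmbt1, a mucin-like glycoprotein of many epithelia, stood at 10.44, within its range in the other 11 tumours (5.07 to 14.12). Against the mean of 41 acinar genes Tff2 and Dmbt1 were 8.42 and 3.50 above, followed by Zg16 (3.11), Klk1 (2.65) and Cela1 (2.01). The gastric gland list mean in that tumour was 7.78, the highest of the vehicle tumours. In treated tumour 4, with the highest gastric mean of all (9.75), Tff2 stood at 11.49 and the lipases were near their highest levels.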
